A study of Mus musculus with 6 samples.

Results

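The nuclear genes of respiratory complex I were followed in brown adipose tissue of mice, as all protein-coding rows of the deposited count table whose symbol in the GENCODE M21 annotation starts with Nduf. The rule found 46 genes among the 54385 rows of the table, and 46 such genes are annotated. They were 7 core subunits, 29 accessory subunits, 8 assembly factors (Ndufaf genes) and 2 relatives outside the complex, Ndufa4 and Ndufa4l2. A further 5 Nduf rows are annotated as pseudogenes or as a noncoding RNA and are described apart.

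The tissue came from chow-fed C57BL/6N mice aged 20 weeks, of the ADCY3∆AT genotype (3 libraries) or wild type (WT, genotype wt/wt, 3 libraries). ADCY3∆AT is the knockout of Adcy3-AT, the truncated form of adenylyl cyclase 3, an enzyme that makes cyclic AMP. The series title ties that form to cold, but no library of this set came from mice labelled as cold-exposed. Each sample label calls the tissue interscapular brown fat and the design text calls it inguinal, and neither says how the allele was made, in which cells it acts or whether each library is 1 mouse.

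Complex I is the entry point of the respiratory chain in the inner mitochondrial membrane. Its matrix arm takes electrons from NADH through a flavin and a chain of iron-sulfur clusters to ubiquinone, and its membrane arm pumps protons, which in brown fat can flow back through uncoupling protein 1 and release heat. Core subunits, shared with bacteria, carry out the catalysis, accessory subunits surround and stabilise them, and assembly factors help to build the complex and are not part of the finished enzyme. The genes for the core membrane subunits lie in mitochondrial DNA (the mt-Nd genes), so both genomes contribute to the complex.

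Library totals ran from 14799779 to 19592156 estimated counts in ADCY3∆AT and from 13758492 to 17489589 in WT, and mitochondrially encoded genes took 21.9% to 24.4% of them in ADCY3∆AT and 23.8% to 24.4% in WT. Every one of the 46 genes passed the filter on low counts, with 101 to 20648 counts in a library. Over the whole gene, Adcy3 (ENSMUSG00000020654) had 167, 195 and 239.8 CPM (estimated counts, scaled by TMM and to library size) in ADCY3∆AT libraries, against 248, 209 and 166 CPM in WT libraries, with overlap between the genotypes. The row adds up full-length and truncated transcripts, so it does not check the knockout of the truncated form. All 12 brown adipocyte markers were detected, Ucp1 at 4028, 4486 and 4202 CPM in ADCY3∆AT and 5248, 5432 and 3679 CPM in WT. Skeletal muscle RNA set the WT libraries apart. The 17 muscle markers summed to 46.7, 47.1 and 48.8 CPM in ADCY3∆AT libraries, against 69.1, 172 and 812 CPM in WT replicates 1, 2 and 3, and 3 of them were at 0 in every ADCY3∆AT library. Of these markers, Myl1 alone had 43.6, 45.0 and 47.4 CPM in ADCY3∆AT and 43.6, 47.7 and 69.3 CPM in WT, with overlap. Myl1 thus held most of the sum in the ADCY3∆AT libraries and in WT replicate 1, so the sums understate how far the other markers differed.

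Complex I RNA was slightly lower in ADCY3∆AT across nearly the whole family, and no single gene passed the test. Estimated counts of the 36 subunits summed to 11369.6, 10712 and 11012 CPM in ADCY3∆AT libraries, against 12004, 11651 and 11960.4 CPM in WT libraries. The highest ADCY3∆AT library lay below the lowest WT library, and the mean was 7.08% lower in ADCY3∆AT (11031 ± 329 CPM, against 11872 ± 192 CPM in WT, SD, n = 3 each). All 36 subunits had a negative log2 fold change (ADCY3∆AT minus WT), as did 7 of the 8 assembly factors and both genes outside the complex, beside 51.1% of all 14332 genes tested. Of 201 other abundant genes with short transcripts, described further on, 68.2% were negative. Not every subunit is that short or abundant, and the assembly factors fall below the level of that set. With an offset for transcript length, 30 of 36 subunits were negative. Fold changes were small: the subunits ran from -0.20 to -0.03 on the log2 scale, and 28 of 36 lay within 10% of the WT mean. In bulk tissue, fewer cells of a type and less RNA per cell cannot be told apart.

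None of the 46 genes was called at an adjusted p under 0.05 in the quasi-likelihood test of edgeR, where 616 of all genes tested were (4.3%, with 1.67% lower and 2.63% higher in ADCY3∆AT). DESeq2 and limma-voom also called 0 members, where they called 993 and 525 of the 14332 genes tested. An edgeR threshold of 0.10 called 0 members too, and the count over all genes at that threshold is not given here. Without adjustment, 10 of the 44 complex I genes had an edgeR p under 0.05 (8 accessory subunits, 2 assembly factors and 0 core subunits). This was close to the edgeR background of 22.6% of all genes. DESeq2 gave 7 and limma-voom 11, but the share of all genes under those tests is not given here. The median standard error of a subunit was 0.06 on the log2 scale and the median subunit fold change was -0.11. The 95% intervals of all 36 subunits included that median, and those of 8 lay wholly below 0. The genotypes did not overlap, with ADCY3∆AT lower, for 19 of 36 subunits and 3 of 8 assembly factors, beside 13.9% of all genes tested. Among the 201 other abundant genes with short transcripts the share was 27.4%. That set (at least 100 CPM, up to 1500 bases) matches only part of the members. Some subunits are longer or less abundant, and the assembly factors fall below 100 CPM. No member was higher in ADCY3∆AT without overlap, beside 15.1% of all genes.

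**Figure D1:**
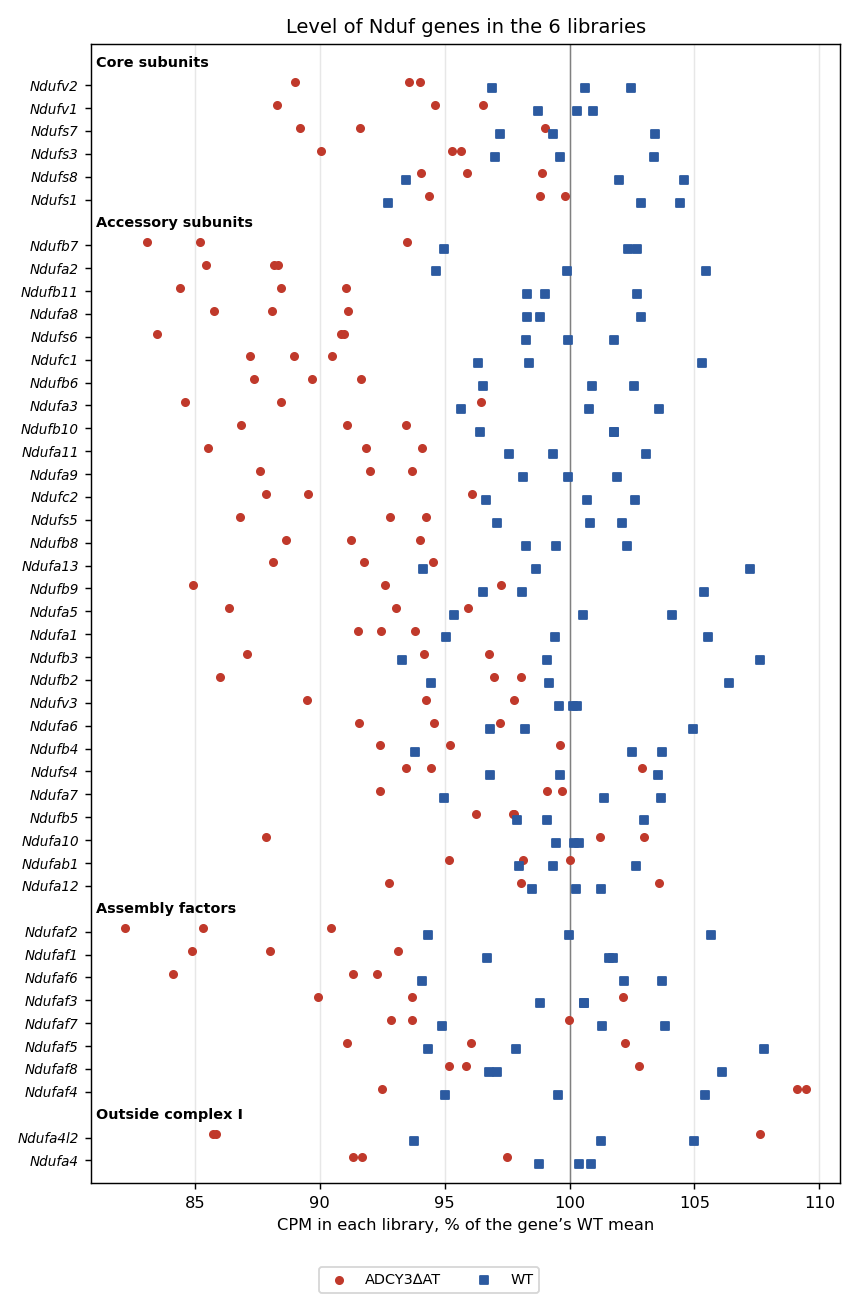
Level of 45 Nduf genes in every library, as CPM in percent of the gene's own WT mean (x axis), with 3 ADCY3∆AT libraries as red circles and 3 WT libraries as blue squares. Most ADCY3∆AT points lie left of the WT points of the same gene, and Ndufaf4 is the 1 gene whose ADCY3∆AT mean is higher.

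The core subunits had a median log2 fold change of -0.10, against -0.01 over all genes tested, and summed to 6.18% less in ADCY3∆AT. The core median was -0.02 with an offset for transcript length, and 201 other abundant genes with short transcripts, described further on, had a median of -0.07. Some core genes, such as Ndufs1 (2661 bases), are longer than the 1500-base limit of that set. The core subunits are described here along the path of the electrons. Ndufv1, which binds the flavin and NADH, had 1066, 975 and 1045 CPM in ADCY3∆AT libraries, against 1108, 1091 and 1115 CPM in WT libraries. The genotypes did not overlap, with ADCY3∆AT replicate 2 the lowest (log2 fold change -0.10, SE 0.06, edgeR adjusted p = 0.383). Ndufv2, its iron-sulfur partner, had 417, 415 and 395 CPM in ADCY3∆AT libraries, against 446, 455 and 429.9 CPM in WT libraries. It had the most negative fold change of the core genes, and its genotypes did not overlap (log2 -0.12, SE 0.06, edgeR adjusted p = 0.3). Ndufs1, which carries iron-sulfur clusters between the flavin and the rest of the chain, had 597, 564 and 591 CPM in ADCY3∆AT, against 615, 625 and 555 CPM in WT. WT replicate 3 was the lowest of the 6 libraries and WT replicates 1 and 2 the highest, so the genotypes overlapped, and the fold change was the smallest of the core (log2 -0.03, SE 0.07, adjusted p = 0.821 in edgeR).

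Deeper in the matrix arm, Ndufs8, which holds a pair of iron-sulfur clusters, had 232, 239 and 227 CPM in ADCY3∆AT and 253, 246 and 226 CPM in WT. WT replicate 3 was again the lowest library and the genotypes overlapped (log2 -0.05, SE 0.07, edgeR adjusted p = 0.674). Ndufs7, which carries the last cluster before ubiquinone, had 326, 352 and 317 CPM in ADCY3∆AT and 368, 346 and 353 CPM in WT. ADCY3∆AT replicate 2 lay among the WT libraries and the other ADCY3∆AT libraries below them (log2 -0.10, SE 0.07, edgeR adjusted p = 0.413). Ndufs3, a scaffold of the module that binds ubiquinone, had 372, 371 and 350.4 CPM in ADCY3∆AT and 388, 402 and 377 CPM in WT, and its genotypes did not overlap (log2 -0.09, SE 0.06, edgeR adjusted p = 0.409). In all, 3 of 7 core genes separated the genotypes with ADCY3∆AT lower, beside 13.9% of all genes tested. The share was 27.4% among the 201 other abundant genes with short transcripts, though some core genes have longer transcripts. Of the 7, ADCY3∆AT replicate 3 was the lowest library for 3, ADCY3∆AT replicate 2 for 2 and WT replicate 3 for 2.

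The accessory subunits had a median of -0.13 on the log2 scale, and summed to 7.57% less in ADCY3∆AT. The genotypes did not overlap for 16 of 29, all of them lower in ADCY3∆AT, beside 13.9% of all genes tested. Among the 201 other abundant genes with short transcripts the share was 27.4%, though not all accessory subunits are that short or abundant. The 8 accessory subunits with the smallest edgeR p follow, with adjusted p-values from 0.128 to 0.218. Ndufb11, an X-linked subunit of the membrane arm, had 325, 301 and 316 CPM in ADCY3∆AT, against 353, 351 and 366 CPM in WT. Its highest ADCY3∆AT library lay below its lowest WT library (log2 -0.18, 95% interval -0.33 to -0.04, edgeR adjusted p = 0.128). Ndufa8, on the face of the membrane arm towards the intermembrane space, had 281, 265 and 272 CPM in ADCY3∆AT, against 318, 304 and 305 CPM in WT, also without overlap (log2 -0.18, SE 0.06, edgeR adjusted p = 0.131). Ndufa2, a matrix-arm subunit, had 138, 134 and 138 CPM in ADCY3∆AT, against 148, 156 and 165 CPM in WT. WT replicates differed more among themselves here than ADCY3∆AT replicates did, with an SD of 2.51 CPM in ADCY3∆AT and 8.45 CPM in WT (log2 -0.20, SE 0.07, edgeR adjusted p = 0.129). Ndufs6, a zinc-binding subunit of the NADH module, had 186, 171 and 186 CPM in ADCY3∆AT, against 204, 201 and 208 CPM in WT. ADCY3∆AT replicate 2 was the lowest library (log2 -0.18, SE 0.06, edgeR adjusted p = 0.149).

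The other 4 of these belong to the membrane arm, whose accessory subunits clamp the proton-pumping core together. Ndufb7 had 169, 154 and 150.5 CPM in ADCY3∆AT, against 185, 172 and 186 CPM in WT, and the most negative fold change of all subunits (log2 -0.20, SE 0.07, edgeR adjusted p = 0.153). Ndufc1 had 149, 146 and 143 CPM in ADCY3∆AT, against 162, 158 and 173 CPM in WT (edgeR adjusted p = 0.161). Neither gene had an ADCY3∆AT library above a WT one. Ndufb6 had 244, 239 and 232 CPM in ADCY3∆AT, against 268, 257 and 273 CPM in WT (log2 -0.16, edgeR adjusted p = 0.168). Ndufb10 had 250.2, 257 and 239 CPM in ADCY3∆AT, against 279.6, 265 and 279.6 CPM in WT (log2 -0.14, edgeR adjusted p = 0.218). These also separated the genotypes, and for each of the 8 the exact two-sided permutation test over the 10 divisions of the libraries gave p = 0.1, the smallest that 3 against 3 allows. Genotypes that do not overlap always give this value, so it adds nothing to the lack of overlap. Of all genes tested, 13.9% were lower and 15.1% higher in ADCY3∆AT without overlap.

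The remaining 21 accessory subunits ran from -0.15 to -0.03 on the log2 scale. For 8 of them ADCY3∆AT was lower without overlap, beside 13.9% of all genes tested. The share was 27.4% among the 201 other abundant genes with short transcripts, though not all of the 21 are that short or abundant. Ndufs4, whose loss in mice causes a severe brain disease, had 179, 164 and 162 CPM in ADCY3∆AT and 179.7, 168 and 173 CPM in WT, with overlap (log2 -0.04, SE 0.07). Ndufa12, the subunit nearest to no change, had 192, 172 and 182 CPM in ADCY3∆AT and 188, 183 and 186 CPM in WT (log2 -0.03, SE 0.07). Its highest and lowest libraries both came from ADCY3∆AT. Ndufa10, a membrane-arm subunit, showed the same with 716, 611 and 703 CPM in ADCY3∆AT and 698, 691 and 696 CPM in WT, and was the subunit with the widest spread in ADCY3∆AT relative to WT (SD 57.5 CPM in ADCY3∆AT and 3.22 CPM in WT). By position in the enzyme, the 16 matrix-arm subunits had a median log2 fold change of -0.10 and the 20 membrane-arm subunits -0.13, a difference that was not tested.

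The promoters were described because nuclear respiratory factor 1 (NRF1) is known to regulate many respiratory genes, and cyclic AMP, which adenylyl cyclases make, acts on genes through a response element of its own. RefSeq windows (GRCm38.p6, 250 bases before to 50 after the start) matched 40 of the 46 members. The NRF1 motif, GCGC and GCGC with any pair of bases between them and so the same on both strands, stood in 11 of 40 (27.5%) and in 7.0% of all 27025 genes with a window. The cyclic AMP response element TGACGTCA, also palindromic, stood in 3 (7.5%, Ndufa10, Ndufa11 and Ndufb2) and in 2.03% of all. AAGATGGCG, a motif of YY1, stood on either strand in 6 (15%) and in 1.64% of all, after the start in each of the 6. CAAGGTCA, bound by estrogen-related receptors, stood on either strand in 1 (2.5%, Ndufs5) and in 1.76% of all. Stretches that end at the start site of Ndufa8 and Ndufs6, which are among the 8 accessory genes above, and a stretch of Ndufa11, the 1 member with both NRF1 and cyclic AMP motifs, are printed with the motifs in capitals.
Ndufa8 (chr2:36049339-36049458, minus strand, GRCm38.p6): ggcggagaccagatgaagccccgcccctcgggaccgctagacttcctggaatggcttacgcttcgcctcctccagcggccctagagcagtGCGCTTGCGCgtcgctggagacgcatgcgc
Ndufs6 (chr13:73328483-73328602, minus strand, GRCm38.p6): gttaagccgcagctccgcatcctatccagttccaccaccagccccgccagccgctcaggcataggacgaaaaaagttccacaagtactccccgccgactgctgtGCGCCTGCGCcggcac
Ndufa11 (chr17:56717592-56717761, plus strand, GRCm38.p6): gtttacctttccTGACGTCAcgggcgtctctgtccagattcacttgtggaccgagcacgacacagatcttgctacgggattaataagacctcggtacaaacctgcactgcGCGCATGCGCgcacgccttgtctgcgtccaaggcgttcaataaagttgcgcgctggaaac
The first base of the NRF1 motif stood at -30 from the start in Ndufa8, -16 in Ndufs6 and -60 in Ndufa11, and that of the cyclic AMP element at -158 in Ndufa11. Ndufa11 had 116, 119 and 108 CPM in ADCY3∆AT, against 130.5, 123 and 126 CPM in WT, without overlap (log2 -0.14, edgeR adjusted p = 0.241), while Ndufa10 and Ndufb2, the other genes with the element, overlapped. A match describes these letters and shows no binding.

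**Figure D2:**
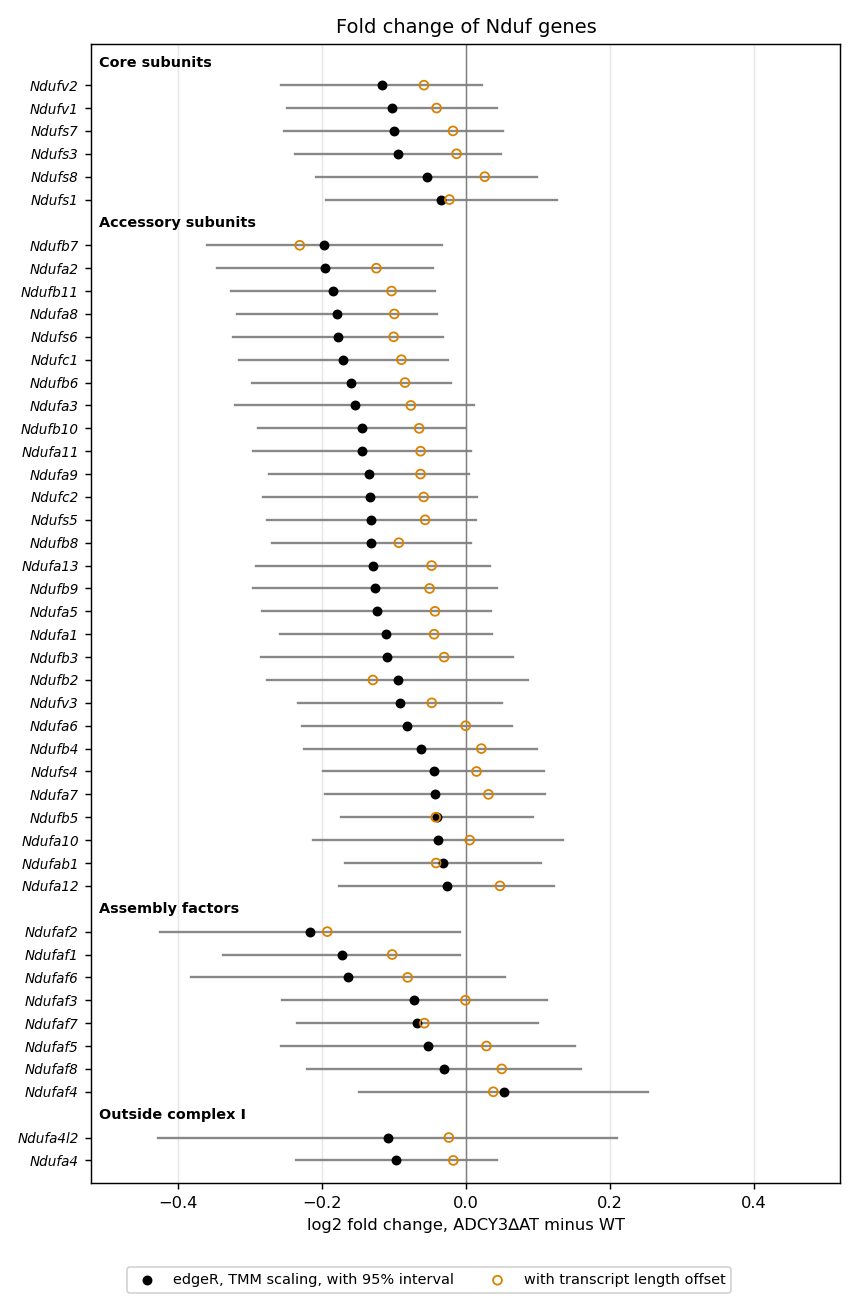
Log2 fold change of 45 Nduf genes (x axis, ADCY3∆AT minus WT), as black points with 95% intervals from edgeR and as open orange circles after a correction for transcript length in each library. The intervals of 10 genes lie wholly below 0, and with the correction the medians lie nearer to 0, at -0.02 for core and -0.06 for accessory subunits.

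Assembly factors were less precisely measured than subunits, with a median standard error of 0.09 on the log2 scale, against 0.06. Their median log2 fold change was -0.07, and their sum was 4.61% lower in ADCY3∆AT (227, 221 and 225 CPM in ADCY3∆AT, against 239, 230.4 and 237 CPM in WT). Most of their roles were worked out in human cells and other eukaryotes. Ndufaf1, which helps to build the membrane arm as part of a complex with Ecsit and Acad9, had 39.6, 36.1 and 37.4 CPM in ADCY3∆AT, against 43.2, 43.2 and 41.1 CPM in WT. The genotypes did not overlap (log2 -0.17, SE 0.07, edgeR adjusted p = 0.203). Ndufaf2, a relative of Ndufa12 that acts late, when the NADH module joins, had 14.6, 13.82 and 13.3 CPM in ADCY3∆AT, against 17.1, 16.2 and 15.3 CPM in WT. It had the most negative fold change of all 46 genes, again without overlap (log2 -0.22, 95% interval -0.43 to -0.01, edgeR adjusted p = 0.206). Ndufaf6, which acts early, had 12.5, 12.4 and 11.4 CPM in ADCY3∆AT, against 14.1, 13.9 and 12.8 CPM in WT. It was the third without overlap (log2 -0.16, SE 0.10, edgeR adjusted p = 0.351).

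Ndufaf3 and Ndufaf4 work together on the module that binds ubiquinone, and their values lay on opposite sides of 0. Ndufaf3 had 22.8, 24.8 and 21.9 CPM in ADCY3∆AT and 24.03, 24.5 and 24.5 CPM in WT (log2 -0.07, SE 0.08). Ndufaf4 had 58.5, 49.6 and 58.7 CPM in ADCY3∆AT and 53.3, 50.9 and 56.5 CPM in WT (log2 0.05, SE 0.09). Both overlapped between the genotypes, and the edgeR adjusted p was 0.643 for Ndufaf3 and 0.771 for Ndufaf4. Ndufaf5 and Ndufaf7 are enzymes that modify core subunits. Ndufaf5, which hydroxylates Ndufs7, had 19.5, 21.9 and 20.6 CPM in ADCY3∆AT and 23.1, 20.99 and 20.2 CPM in WT. Its partner Ndufaf8 had 19.3, 19.4 and 20.8 CPM in ADCY3∆AT and 19.7, 19.59 and 21.5 CPM in WT. Ndufaf7, which methylates a core subunit, had 40.3, 43.4 and 40.6 CPM in ADCY3∆AT and 43.9, 41.2 and 45.04 CPM in WT. All 3 overlapped, with log2 fold changes of -0.05, -0.03 and -0.07 and edgeR adjusted p-values of 0.776, 0.868 and 0.629.

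Between genes, levels were compared per length, as TPM with the longest annotated transcript of each gene. Core subunits had a median of 571 TPM in ADCY3∆AT and 595 TPM in WT, accessory subunits 379 TPM in ADCY3∆AT and 381 TPM in WT, and assembly factors 26.1 TPM in ADCY3∆AT and 26.6 TPM in WT. The core median was 21.8 times the median of the assembly factors in ADCY3∆AT and 22.3 times in WT. Among core genes Ndufv1 was highest, with 1051, 1035 and 1051 TPM in ADCY3∆AT and 1107, 1073 and 1102 TPM in WT. Ndufs1 was lowest, with 367, 374 and 371 TPM in ADCY3∆AT and 384, 383 and 342 TPM in WT. The 7 core genes thus spanned 2.82-fold in ADCY3∆AT and 2.96-fold in WT, while the 29 accessory genes spanned 32.5-fold in ADCY3∆AT and 33.3-fold in WT. Ndufb9, a membrane-arm subunit, was the highest accessory gene with 1281, 1205 and 1244 TPM in ADCY3∆AT and 1309, 1268 and 1391 TPM in WT. Ndufb2, also of the membrane arm, was the lowest with 38.4, 41.8 and 34.7 TPM in ADCY3∆AT and 39.8, 37.3 and 42.2 TPM in WT. Both overlapped between the genotypes, and in CPM their edgeR adjusted p-values were 0.355 for Ndufb9 and 0.523 for Ndufb2. Of the assembly factors, Ndufaf1 was highest (43.85, 43.00 and 42.26 TPM in ADCY3∆AT, 48.5, 47.7 and 45.6 TPM in WT) and Ndufaf2 lowest (9.97, 10.16 and 9.24 TPM in ADCY3∆AT, 11.83, 10.998 and 10.43 TPM in WT).

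The order within a class depends on the length assumed. For 9 of the 46 genes the longest transcript was over 1.5 times as long as the principal coding transcript. With the principal one, Ndufb8 of the membrane arm moved to 1438 TPM in ADCY3∆AT and 1533 TPM in WT, and became the highest accessory subunit. Ndufb7 moved to 398 TPM in ADCY3∆AT and 445 TPM in WT, and Ndufaf6 became the lowest assembly factor. The gap between classes stayed, with medians of 531 TPM for core and 30.1 TPM for assembly genes in ADCY3∆AT, and 553 and 32.3 TPM in WT. On the TPM scale 33 of 36 subunits were lower in ADCY3∆AT, the exceptions being Ndufs1, Ndufa12 and Ndufab1.

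**Figure D3:**
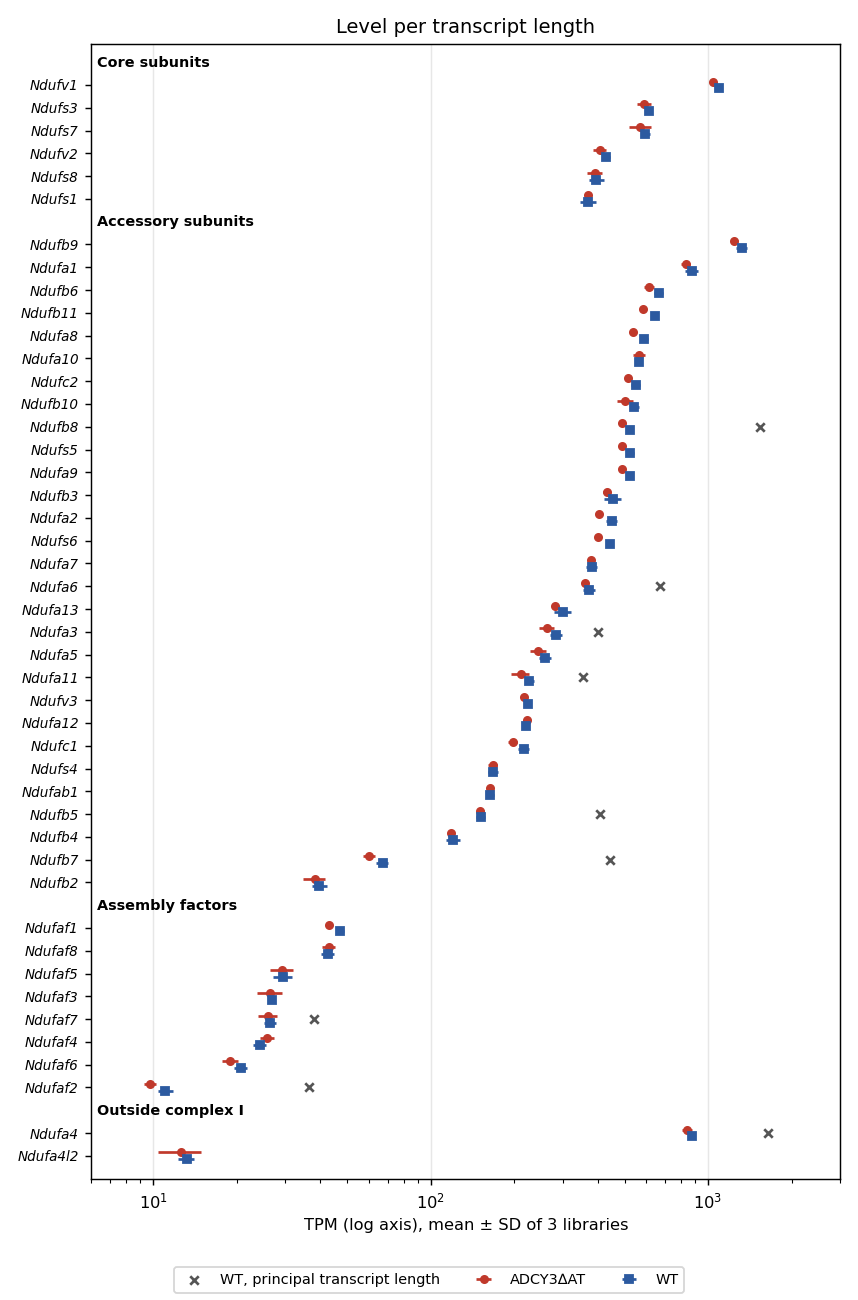
Level of 45 Nduf genes per length of the longest transcript (x axis, TPM, log axis), as mean ± SD of 3 ADCY3∆AT libraries (red circles) and 3 WT libraries (blue squares), with grey crosses for WT levels at the principal transcript's length where that changes the length over 1.5 times. Assembly factors lie between 9.79 and 47.3 TPM, and core subunits between 369.7 and 1094 TPM.

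The genes outside the complex behaved within the same range. Ndufa4, named for complex I but since placed in cytochrome c oxidase, had 600.4, 598 and 638 CPM in ADCY3∆AT, against 657, 660.2 and 647 CPM in WT, without overlap (log2 -0.10, SE 0.06, edgeR adjusted p = 0.388). Its relative Ndufa4l2 had 6.83, 8.57 and 6.83 CPM in ADCY3∆AT and 8.36, 7.46 and 8.06 CPM in WT, with overlap (log2 -0.11, SE 0.14, edgeR adjusted p = 0.689). Per length, Ndufa4 was at 839.7 TPM and Ndufa4l2 at 12.6 TPM in ADCY3∆AT, against 874 and 13.2 TPM in WT.

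Reads of 2 accessory subunits could not be fully told apart from those of near-identical copies elsewhere in the genome, processed pseudogenes being reverse-transcribed copies of messenger RNA. The row Ndufb4c (chr15:73809507-73809896, minus strand of GRCm38, 390 bases) was identical to Ndufb4 over all 390 bases of its coding sequence. The first 90 bases are printed from the GENCODE M21 transcripts, because a read within them cannot be placed by its letters. Capitals mark the start codon.
Ndufb4 (chr16:37654270-37654359, minus strand, GRCm38): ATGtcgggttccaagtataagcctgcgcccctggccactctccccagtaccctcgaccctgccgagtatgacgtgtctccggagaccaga
Ndufb4c (chr15:73809807-73809896, minus strand, GRCm38): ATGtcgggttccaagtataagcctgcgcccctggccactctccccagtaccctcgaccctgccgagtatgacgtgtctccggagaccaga
Ndufb4 itself had 70.9, 65.8 and 67.8 CPM in ADCY3∆AT and 73.8, 66.8 and 72.99 CPM in WT, and the pseudogene row had more, 107, 103 and 108 CPM in ADCY3∆AT and 118, 117 and 119.9 CPM in WT. In Ndufb4 alone the genotypes overlapped (log2 -0.06, SE 0.07, edgeR adjusted p = 0.644). Summed, the pair had 178, 168 and 176 CPM in ADCY3∆AT, against 192, 184 and 193 CPM in WT, and the genotypes no longer overlapped (log2 -0.12, SE 0.06, edgeR adjusted p = 0.277).

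Ndufab1, the mitochondrial acyl carrier protein, which also serves fatty acid synthesis in mitochondria, has such a copy in Gm4459 on the same chromosome. Of the 468 bases of Gm4459, 467 matched Ndufab1, and the 1 difference was G137A (Ndufab1 base, position from the first base of Gm4459, Gm4459 base). The 41 bases around it are printed with that base in capitals, since it is the only letter that tells these reads apart.
Ndufab1 (chr7:122101666-122101706, minus strand, GRCm38): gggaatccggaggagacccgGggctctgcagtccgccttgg
Gm4459 (chr7:139659999-139660039, minus strand, GRCm38): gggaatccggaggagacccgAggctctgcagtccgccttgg
Ndufab1 had 346, 329 and 339 CPM in ADCY3∆AT and 355, 339 and 343 CPM in WT, and Gm4459 had 139, 143 and 134 CPM in ADCY3∆AT and 151, 138 and 146 CPM in WT. Alone or summed the pair overlapped between the genotypes (summed log2 -0.04, SE 0.06, edgeR adjusted p = 0.721). The levels of these 2 subunits are therefore uncertain, while for 4 other members with a copy the copies held at most 0.03% of the member's counts. Separately, 19 of the 46 genes share exon positions with another annotated gene, and without strand information those reads could not be told apart.

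**Figure D4:**
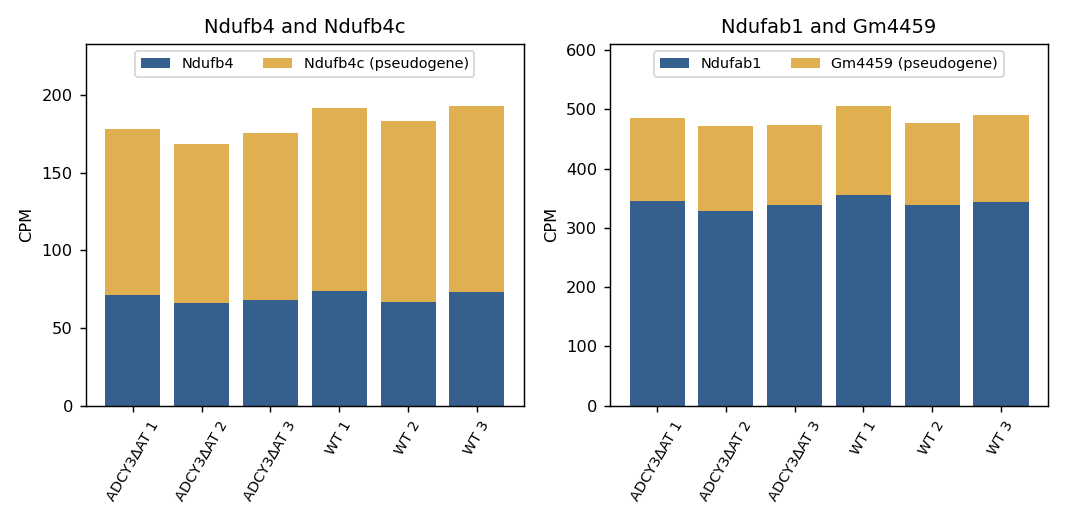
CPM in each library (y axis from 0) of Ndufb4 with its pseudogene Ndufb4c (left) and of Ndufab1 with Gm4459 (right), stacked, with 3 ADCY3∆AT libraries left of 3 WT libraries. The pseudogene row holds more of the Ndufb4 pair than the gene does, and the summed pair is lower in all 3 ADCY3∆AT libraries than in any WT library.

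Of the 5 rows that are not protein-coding, Ndufb4c has been described and Ndufb1-ps was the other with counts in every library. It had 68.36, 56.99 and 64.79 CPM in ADCY3∆AT and 69.8, 64.2 and 68.1 CPM in WT, with overlap (log2 -0.09, edgeR adjusted p = 0.585).

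The mitochondrially encoded core genes had a lower mean in ADCY3∆AT but overlapped. Their sum was 67018, 62779.9 and 66595 CPM in ADCY3∆AT, against 69507, 75436 and 66454 CPM in WT. That is 7.1% less in ADCY3∆AT on average, with WT replicate 3 among the ADCY3∆AT libraries. All 7 mt-Nd genes had negative log2 fold changes (median -0.13), 0 was called, and none separated the genotypes. The gene mt-Nd6, the 1 mt-Nd gene with an unadjusted edgeR p under 0.05, had 2651, 2395 and 2973 CPM in ADCY3∆AT and 3152, 3111 and 2965 CPM in WT (log2 -0.20, SE 0.09, edgeR adjusted p = 0.219). The gene mt-Nd3, with the most negative value, had 983, 753 and 1475 CPM in ADCY3∆AT and 1391, 1447 and 1569 CPM in WT. ADCY3∆AT replicate 3 lay among the WT libraries there and the other ADCY3∆AT libraries well below (log2 -0.46, SE 0.21, edgeR adjusted p = 0.241). Mitochondrial over nuclear subunit counts came to 5.93 ± 0.10 in ADCY3∆AT and 5.94 ± 0.48 in WT, and nuclear core genes made up 35.7 ± 0.36% of subunit counts in ADCY3∆AT and 35.4 ± 0.53% in WT (SD, n = 3 each), both differences within 1 SD.

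Assembly factors without the Ndufaf name had mixed signs. Of 14 tested, 9 had negative and 5 positive log2 fold changes (median -0.03), and 0 was called. Tmem186, tied in human cells to the complex that holds Ndufaf1, had 32.4, 34.01 and 32.6 CPM in ADCY3∆AT, against 37.4, 43.3 and 43.9 CPM in WT. Dmac2, an assembly factor of the distal membrane arm, had 67.9, 54.4 and 61.3 CPM in ADCY3∆AT, against 47.9, 47.7 and 46.3 CPM in WT. Both separated the genotypes, Tmem186 lower and Dmac2 higher in ADCY3∆AT, and came near the threshold (log2 -0.33, edgeR adjusted p = 0.0659 for Tmem186, and log2 0.37, edgeR adjusted p = 0.0583 for Dmac2). Ecsit and Acad9, the partners of Ndufaf1, had log2 fold changes of 0.00562 and -0.04. Among 13 genes of general mitochondrial content, 12 were negative (median -0.09) and 0 was called. Of the 13, 6 separated the genotypes with ADCY3∆AT lower, beside 13.9% of all genes tested. The share was 27.4% among the 201 abundant genes with short transcripts, though not all of the 13 reach the level of that set. Tomm20, a receptor of the import pore in the outer membrane, had 89.8, 94.6 and 91.8 CPM in ADCY3∆AT, against 109.8, 105 and 118 CPM in WT (log2 -0.27, edgeR adjusted p = 0.0647), and Cs, citrate synthase, had 2126, 2117 and 2129.9 CPM in ADCY3∆AT and 2337, 2369 and 1876 CPM in WT (log2 -0.05).

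Other cell types were set beside these values through marker lists. Of 12 tested markers of skeletal muscle, a tissue with mitochondria of its own, 7 were called lower in ADCY3∆AT by edgeR. WT replicate 1, with the least muscle marker RNA of the WT libraries (69.1 CPM), had the highest subunit sum of all 6 libraries (12004 CPM). WT replicate 3, with the most (812 CPM), had 11960.4 CPM. Without WT replicate 3 the median log2 fold change was -0.10 for core and -0.11 for accessory subunits. With muscle RNA as a covariate it was -0.15 for core and -0.08 for accessory subunits, in a fit that called 3 of all genes. The covariate, a mean log2 CPM, ran from -1.7 to -1.1 in ADCY3∆AT and from 1.2 to 5.6 in WT. It did not overlap between the genotypes, so that fit cannot well separate genotype from muscle RNA. Brown adipocyte markers summed to 15969.8, 16524 and 15775 CPM in ADCY3∆AT, against 17536, 17527 and 17963 CPM in WT. None of the 12 was called, 9 had negative and 3 positive log2 fold changes, and Fabp4 and Ucp1 held most of the summed CPM. Ppargc1a, a coactivator of genes for mitochondria, had 26.2, 41.2 and 47.9 CPM in ADCY3∆AT, against 22.2, 21.8 and 13.6 CPM in WT. It was higher in every ADCY3∆AT library than in any WT library (log2 1.01, edgeR adjusted p = 0.0609), while Cidea and Cox8b, the other markers with positive values, overlapped. Of 7 macrophage, 5 endothelial, 5 erythroid and 5 fibroblast markers 0 was called. The part of cell composition in the complex I values was not tested beyond these comparisons.

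**Figure D5:**
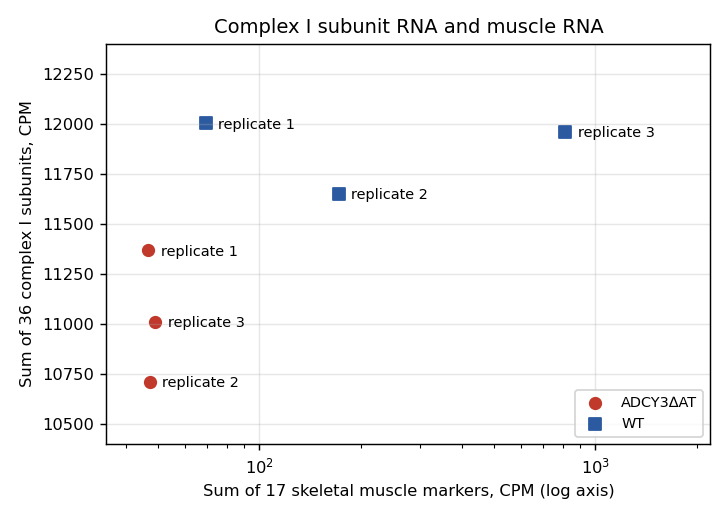
Summed CPM of the 36 nuclear complex I subunits (y axis, starting above 0) against summed CPM of 17 skeletal muscle markers (x axis, log axis) in each library. The 3 ADCY3∆AT libraries (red circles) lie below the 3 WT libraries (blue squares) in subunit RNA at 46.7 to 48.8 CPM of muscle markers, and the WT libraries spread from 69.1 to 812 CPM. Myl1, which overlapped between the genotypes, holds most of the marker sum in the ADCY3∆AT libraries and in WT replicate 1.

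Transcript length moved with the fold changes. Many Nduf transcripts are short and abundant. Of 201 other genes with a mean of at least 100 CPM and a longest transcript of up to 1500 bases, 68.2% had negative fold changes (median -0.07) and 27.4% separated the genotypes with ADCY3∆AT lower. The 1007 longer genes at that level had 45.6% negative fold changes (median 0.02). Not all members lie within these limits. The longest transcript of Ndufb7 has 4435 bases. Ndufaf4, the assembly factor with the most counts, had a mean of 55.6 CPM in ADCY3∆AT and 53.6 CPM in WT. With an offset for the length trend of each library, 30 of 36 subunits were negative. The medians were -0.02 for core, -0.06 for accessory and -0.03 for assembly genes. In that fit 0 members were called, beside 4.35% of all genes tested. The offset used the longest annotated transcript, which for 9 members was over 1.5 times as long as the principal coding one. Whether length sets these values was not tested.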

How the data were processed

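Per the labels' protocols, RNA came from TRIzol lysates cleaned on spin columns, and a NEBNext Ultra II kit gave paired-end polyA libraries. Estimated counts for each gene, the unit of the deposited table, come without the step that made them: the submitters' processing notes list Salmon, StringTie, edgeR and build GRCm38, with no role or version. No source used here gives the strandedness.

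Counts were rounded, filtered (filterByExpr, minimum count 10, minimum total 15), scaled by TMM and tested over all 14332 genes with the two-sided quasi-likelihood test of edgeR 4.0.16 (R 4.3.3). Adjustment was by Benjamini-Hochberg, a gene was called under 0.05, and fold changes are log2, ADCY3∆AT minus WT. Single values also had an exact permutation test of log2(CPM + 0.5). TPM were computed here from the longest GENCODE M21 transcript. Copies were searched by shared 31-base words, at least 50% of those of the copy.

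The members and all gene lists were chosen with earlier results of these data known. Values per library are given for the core subunits and assembly factors (1 member, which enters the counts, sums and medians, is not reported here by itself), the 8 accessory subunits with the smallest p, the extremes of level, Ndufa4 and Ndufa4l2. Others (Ndufs4, Ndufa10, Ndufa11, Ndufa12, Ndufb4, Ndufab1, Tmem186, Dmac2, Tomm20, Cs, Ppargc1a, mt-Nd3 and mt-Nd6) were named after their values were seen. The added lists were mt-Nd genes, other assembly factors, mitochondrial content genes, and markers of brown adipocytes, skeletal muscle, macrophages, endothelium, erythroid cells and fibroblasts. Alternatives were other scalings, DESeq2 1.42.0, limma-voom (limma 3.58.1), other filters and thresholds, a replicate block, a muscle covariate, leaving out mitochondrially encoded genes or each library, and, chosen after seeing the data, summed copies, a transcript length offset and the principal transcript's length. Scripts were tested on simulated data. Whether replicates were separate mice is not given here, so p-values measure the spread between libraries, which may be partly technical.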

Additional observations from a re-analysis of the deposited data

How the results depend on the processing

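No alternative called a member of the complex. All 36 subunits kept a negative log2 fold change under the other scalings, tests and filters, without mitochondrially encoded genes and with the replicate block. Upper-quartile factors shifted the median of all genes to -0.05 and the medians to -0.14 (core), -0.17 (accessory) and -0.11 (assembly). A covariate for skeletal muscle moved the core median to -0.15 and the assembly median to -0.14. That covariate did not overlap between the genotypes, so its fit cannot well separate genotype from muscle RNA. The transcript length offset moved the core median to -0.023 and the accessory median to -0.057. Leaving out 1 library gave -0.10 to -0.07 for core, -0.15 to -0.11 for accessory and -0.11 to -0.04 for assembly genes, with 0 members called. The order of the class medians was not fixed: with the muscle covariate the accessory median (-0.08) was the nearest to 0, and without ADCY3∆AT replicate 2 the assembly median (-0.109) lay below the accessory one (-0.105).

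Single genes changed sign as follows. With the muscle covariate the log2 values were 0.020 for Ndufa13, 0.0030 for Ndufa7, 0.045 for Ndufb2, 0.029 for Ndufb3, 0.0049 for Ndufb9 and 0.099 for Ndufaf8. With the length offset they were 0.026 for Ndufs8, 0.0052 for Ndufa10, 0.047 for Ndufa12, 0.031 for Ndufa7, 0.021 for Ndufb4, 0.015 for Ndufs4, 0.028 for Ndufaf5 and 0.050 for Ndufaf8. Leaving out 1 library gave ranges of -0.086 to 6.4e-06 for Ndufs1 (highest without WT replicate 2), -0.071 to 0.033 for Ndufa10 and -0.058 to 0.015 for Ndufa12 (both highest without ADCY3∆AT replicate 2), -0.095 to 0.0065 for Ndufaf5 (highest without WT replicate 1) and -0.066 to 0.015 for Ndufaf8 (highest without WT replicate 3). The causes were not tested.

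Samples of the same replicate number did not deviate together (correlations of -0.0067, 0.0070 and -0.045). With 3 libraries of each genotype, these values cannot show whether the samples were paired. With the replicate block 324 genes were called in all, against 616 without it, 0 of them members, with medians of -0.10 (core), -0.13 (accessory) and -0.07 (assembly). Over all genes the count called ran from 162 to 461 without 1 library and was 993 with the Wald test of DESeq2, 1951 with no filter on low counts and 3 with the muscle covariate. Members had 101 counts or more in every library.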
